A study of Mus musculus with 12 samples.

Results

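The genes of cholesterol synthesis and of its control by sterol regulatory element-binding protein 2 (SREBP2) were followed in the ileum of mice on 4 diets. The members were chosen by name: 27 genes, all of them present among the 44205 named genes of the expression table and all of them above the filter on low values, which left 17619 genes. They comprise 19 enzymes that lead from acetyl-CoA to cholesterol or to its prenyl side products, 6 genes of the sterol-sensing machinery and 2 genes of sterol handling. C57BL/6 mice received their diet for 10 weeks and were 16 weeks old when the ileum was taken. By the paper's methods, mRNA isolated from the tissue of single mice was depleted of ribosomal RNA and sequenced. The HF-Sugar group ate a diet with 60% of its energy as fat and drank sugar water at 23% (w/v), the HF group ate the same diet with plain water, the NF-Sugar group ate a normal-fat diet with the sugar drink, and the NF group had the normal-fat diet with plain water (3 mice each, 1 library per mouse). The study calls the combined diet of HF-Sugar mice a Western diet and that of NF mice a normal diet. No genotype beyond the strain is given for these groups, and the sex of each sequenced mouse is not given in the sources used here.

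Animal cells build cholesterol from acetyl-CoA through mevalonate, isoprenoid diphosphates, squalene and lanosterol. SREBP2 is made as a membrane protein of the endoplasmic reticulum, where SCAP escorts it and INSIG proteins hold the complex back when sterols are plentiful. When sterols run low the complex moves to the Golgi, site-1 and site-2 proteases release the transcription factor, and it binds sterol regulatory elements (SREs) beside the general factors NF-Y and Sp1. In the small intestine newly made cholesterol adds to what is absorbed from food and bile, so the pathway is known there for its sensitivity to dietary sterol and fat.

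The promoters were searched because the members were chosen as genes of cholesterol synthesis and of its control by SREBP2. RefSeq windows of 300 bases (250 before and 50 after the annotated start, GRCm38.p6) were found for 23 of the 27 members, and Fdft1, Stard4, Fdps and Sqle were not matched. Each window was searched on both strands, with overlapping matches counted, for the SRE core TCACNCCAC, the NF-Y box CCAAT, the Sp1 box GGGCGG and the E-box CACGTG. The NF-Y box was present in 19 of 23 members (82.6%), against 41.1% of all 27025 genes with a window and 42.3% of the 9857 of them that passed the expression filter. The Sp1 box was present in 20 of 23 members (87.0%), against 38.2% of all genes and 66.9% of expressed genes. The E-box was present in 5 members (21.7%), against 8.09% and 11.4%. The exact SRE core occurred in 1 member, Hmgcs1 (4.35% of members, against 1.44% and 1.39%). With at most 1 fixed letter changed, a search chosen after the data were seen, it occurred in 10 of 23 members (43.5%), against 26.7% of all genes and 29.1% of expressed genes. A match describes the letters of a window and is not evidence of binding.

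The 200 bases with the most motif letters are printed 5′ to 3′ on the gene's strand for Srebf2 itself and for the members with a window and an unadjusted p under 0.05 between HF and NF libraries, since these carry the pattern described next. Capitals mark the motifs on either strand, so that ATTGG is CCAAT, and CCGCCC is GGGCGG, read from the other strand.
Hmgcs1 (chr13:119690195-119690394, plus strand): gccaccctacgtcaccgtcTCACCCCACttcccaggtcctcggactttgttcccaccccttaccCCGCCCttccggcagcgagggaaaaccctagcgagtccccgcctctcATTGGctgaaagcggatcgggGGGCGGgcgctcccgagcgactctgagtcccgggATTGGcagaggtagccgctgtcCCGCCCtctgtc
Mvd (chr8:122443409-122443608, minus strand): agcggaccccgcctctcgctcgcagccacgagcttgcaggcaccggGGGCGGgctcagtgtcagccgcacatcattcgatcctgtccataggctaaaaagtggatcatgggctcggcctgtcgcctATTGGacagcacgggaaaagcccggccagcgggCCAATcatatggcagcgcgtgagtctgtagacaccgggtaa
Idi1 (chr13:8885427-8885626, plus strand): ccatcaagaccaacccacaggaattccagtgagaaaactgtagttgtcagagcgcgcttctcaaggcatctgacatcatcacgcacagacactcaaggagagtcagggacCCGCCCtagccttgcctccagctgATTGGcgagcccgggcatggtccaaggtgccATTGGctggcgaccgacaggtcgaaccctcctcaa
Cyp51 (chr5:4104685-4104884, minus strand): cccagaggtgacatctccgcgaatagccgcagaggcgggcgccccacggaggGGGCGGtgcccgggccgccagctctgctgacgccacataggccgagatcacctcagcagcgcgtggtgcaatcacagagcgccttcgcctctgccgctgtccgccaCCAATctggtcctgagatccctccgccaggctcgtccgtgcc
Msmo1 (chr8:64733584-64733783, minus strand): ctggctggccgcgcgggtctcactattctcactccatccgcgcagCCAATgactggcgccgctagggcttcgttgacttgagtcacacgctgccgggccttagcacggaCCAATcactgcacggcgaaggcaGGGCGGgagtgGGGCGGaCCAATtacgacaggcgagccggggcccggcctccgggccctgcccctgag
Hsd17b7 (chr1:169969244-169969443, minus strand): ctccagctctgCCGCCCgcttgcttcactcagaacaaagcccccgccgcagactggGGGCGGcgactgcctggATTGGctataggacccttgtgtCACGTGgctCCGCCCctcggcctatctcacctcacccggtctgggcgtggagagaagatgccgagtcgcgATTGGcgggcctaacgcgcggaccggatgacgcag
Insig1 (chr5:28071173-28071372, plus strand): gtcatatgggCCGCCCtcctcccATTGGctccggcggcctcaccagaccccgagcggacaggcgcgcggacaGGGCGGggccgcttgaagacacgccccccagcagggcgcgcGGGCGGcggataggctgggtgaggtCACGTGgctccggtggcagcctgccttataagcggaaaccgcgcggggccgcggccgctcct
Srebf2 (chr15:82147098-82147297, plus strand): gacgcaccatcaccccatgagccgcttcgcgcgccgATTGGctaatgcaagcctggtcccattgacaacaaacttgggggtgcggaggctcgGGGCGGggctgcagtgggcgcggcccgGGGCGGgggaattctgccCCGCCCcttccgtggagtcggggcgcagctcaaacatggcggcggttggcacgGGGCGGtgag
The SRE core of Hmgcs1 began at -137 from the start that RefSeq annotates, which is not the GENCODE start given with its values. Msmo1 carried 3 CCAAT boxes in its stretch, the Mvd, Idi1, Hmgcs1 and Hsd17b7 stretches 2 each, and the Cyp51, Insig1 and Srebf2 stretches 1 each. The E-box occurred in the Hsd17b7 and Insig1 stretches.

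Values are the deposited RPKM, reads per kilobase of transcript relative to library size, divided by a trimmed-mean (TMM) factor per library, and called scaled RPKM here. Differences are on the log2(scaled RPKM + 1) scale, which understates those of low genes, and are given ± SE from limma as the first named group minus the second. A gene counted as called at a Benjamini-Hochberg adjusted p under 0.05 over all 17619 genes. The libraries held an estimated 15.3 to 39.0 M reads, and the members drew 113 to 13516 reads in a library. Correlations of log values between libraries ran between 0.925 and 0.983. The first principal component (39.7% of the variance) set HF-Sugar replicate 2, HF replicate 2, NF-Sugar replicate 1 and NF replicate 2 apart from the other 8 libraries, 1 in each group. The ileal enterocyte list (8 of 8 genes detected in every library, Fabp6 and Slc10a2 among them) summed to 5537 to 12550 scaled RPKM in HF-Sugar, 5427 to 10870 in HF, 5243 to 6462 in NF-Sugar and 6839 to 11770 in NF libraries. These sums largely follow Fabp6, which alone gave 9314 in HF-Sugar replicate 1 and 2483 in HF-Sugar replicate 2. In whole tissue, fewer cells of a type and less RNA per cell cannot be told apart.

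No member was called in any of the 8 comparisons by limma. The smallest adjusted p of a member was 0.991, in HF-Sugar against NF. In HF-Sugar against HF and in HF-Sugar against NF-Sugar 0.00568% of all genes were called (1 gene each, no member), and in the other 6 comparisons 0% were. Every statement on a member below therefore concerns its level and its spread, not a called change. Most enzymes had their lowest group mean in HF. Between HF and NF libraries 22 of 27 members had a lower mean log2 value in HF, among them 18 of 19 enzymes. The median log2 difference was -0.25 for the members and -0.37 for the enzymes, against -0.0068 for all genes tested. The member median was -0.42 without NF replicate 3, -0.40 without HF replicate 2 and -0.17 without NF replicate 1. Between HF-Sugar and HF libraries 25 of 27 members had a higher mean log2 value in HF-Sugar. The median difference was 0.37 for the members and 0.43 for the enzymes, against -0.00026 for all genes. These comparisons share the HF libraries, so low HF values enter both. The summed level of the 19 enzymes was 293.7, 380.2 and 274.9 scaled RPKM in HF-Sugar libraries, 183.0, 256.5 and 253.3 in HF libraries, 228.2, 344.4 and 330.6 in NF-Sugar libraries and 379.3, 330.7 and 286.4 in NF libraries. The HF libraries lay below every HF-Sugar and every NF library in this sum, while NF-Sugar replicate 1 lay among them.

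**Figure D1:**
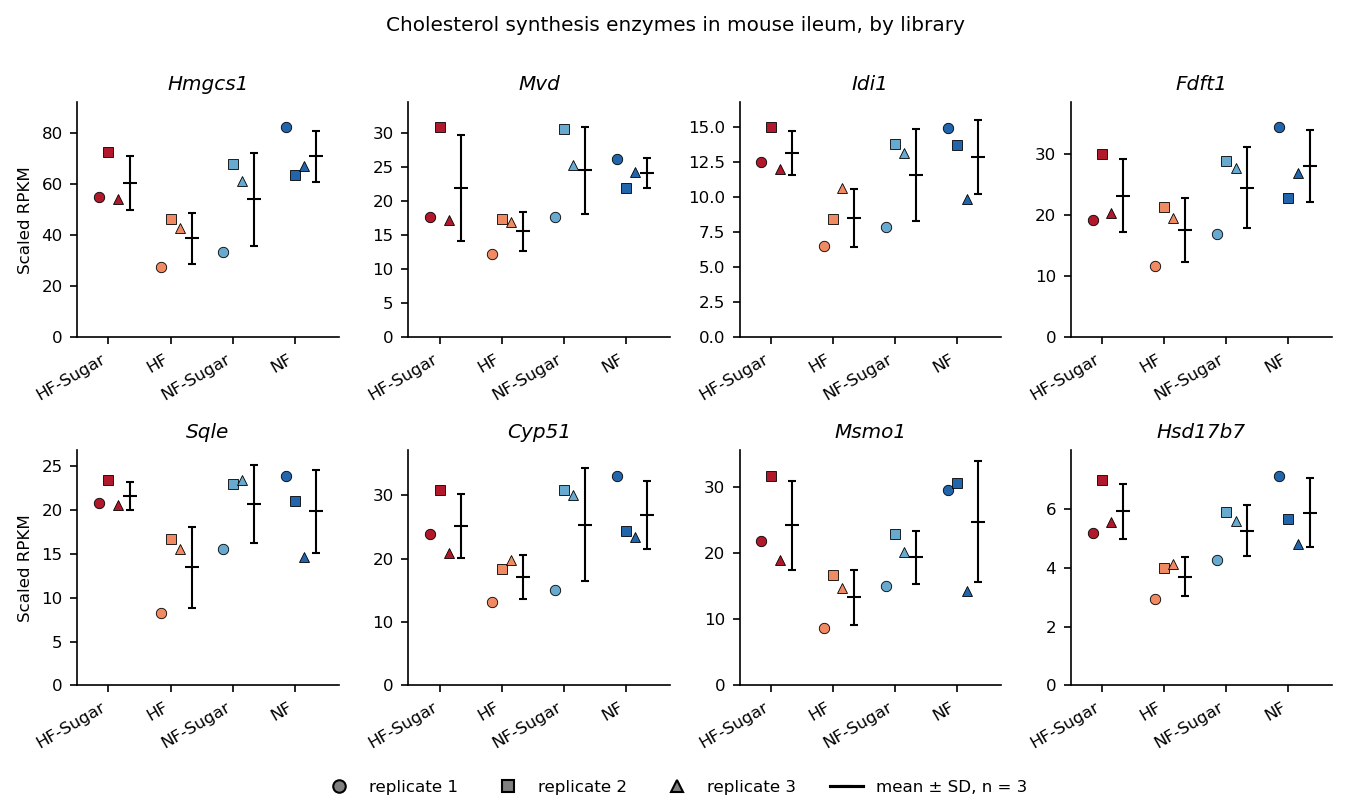
Scaled RPKM of 8 enzymes (vertical axes, linear, starting at 0) in the 12 libraries, by diet group (horizontal axes). Symbols are replicates and bars give mean ± SD (n = 3); HF replicate 1 is the lowest library in all 8 panels, and Hmgcs1 averaged 38.9 in HF against 71.0 in NF libraries.

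The first enzymes join acetyl-CoA units and make mevalonate. Hmgcs1, the synthase of hydroxymethylglutaryl-CoA (GENCODE on mm10, chromosome 13, 119690379 to 119708260, plus strand), gave 54.9, 72.8 and 54.0 scaled RPKM in HF-Sugar libraries, 27.5, 46.2 and 42.9 in HF libraries, 33.4, 67.8 and 61.3 in NF-Sugar libraries and 82.3, 63.5 and 67.1 in NF libraries. All 3 HF libraries lay below all NF and all HF-Sugar libraries, and NF-Sugar replicate 1 was as low as the HF libraries. The difference was -0.88 ± 0.28 for HF minus NF and 0.65 ± 0.28 for HF-Sugar minus HF, the second being 0.42 without HF replicate 1. Mvd, the decarboxylase that ends the mevalonate steps, gave 17.6, 30.8 and 17.2 scaled RPKM in HF-Sugar libraries, 12.3, 17.4 and 16.9 in HF libraries, 17.7, 30.5 and 25.3 in NF-Sugar libraries and 26.2, 21.8 and 24.2 in NF libraries. Its HF libraries lay below all NF libraries (-0.61 ± 0.26) but reached into the range of HF-Sugar libraries (0.43 ± 0.26). Pmvk, which adds the next phosphate to phosphomevalonate, gave 20.9, 22.8 and 16.0 scaled RPKM in HF-Sugar libraries, 12.7, 15.7 and 13.5 in HF libraries, 14.8, 21.6 and 18.6 in NF-Sugar libraries and 20.5, 19.5 and 13.6 in NF libraries. The HF-Sugar libraries all lay above the HF libraries (0.47 ± 0.20), whereas HF and NF overlapped (-0.32 ± 0.20).

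Idi1, which isomerises isopentenyl diphosphate, averaged 13.1 ± 1.60 in HF-Sugar, 8.52 ± 2.08 in HF, 11.6 ± 3.27 in NF-Sugar and 12.8 ± 2.62 scaled RPKM in NF (SD, n = 3). Its HF-Sugar libraries did not overlap the HF libraries (0.59 ± 0.24), and its HF and NF libraries did (-0.54 ± 0.24). Not all early enzymes followed: Mvk, the mevalonate kinase, averaged 10.7 ± 1.04 in HF-Sugar, 9.84 ± 1.70 in HF, 10.9 ± 2.89 in NF-Sugar and 9.76 ± 1.20 scaled RPKM in NF, with a difference of 0.00 ± 0.20 between HF and NF. Acat2, the cytosolic acetoacetyl-CoA thiolase, averaged 8.46 ± 0.755 in HF-Sugar, 7.11 ± 1.77 in HF, 8.49 ± 3.25 in NF-Sugar and 8.58 ± 1.69 scaled RPKM in NF. The Acat2 value is uncertain, as 45.9% of its 50-base stretches also occur in Acat3, and 21.3% of those of Idi1 occur in other annotated copies.

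The pathway then branches at the prenyl diphosphates. Fdps, farnesyl diphosphate synthase, averaged 9.92 ± 2.90 in HF-Sugar, 7.61 ± 2.81 in HF, 10.1 ± 2.94 in NF-Sugar and 9.73 ± 1.25 scaled RPKM in NF, with its lowest value in HF replicate 1 and a difference of -0.37 ± 0.28 for HF minus NF. Ggps1, which makes the geranylgeranyl diphosphate used for protein prenylation, was low and even at 2.36 ± 0.293 in HF-Sugar, 2.52 ± 0.439 in HF, 2.40 ± 0.414 in NF-Sugar and 2.61 ± 0.275 scaled RPKM in NF, with -0.04 ± 0.13 for the same comparison. Ggps1 was also 1 of the 2 members whose mean log2 value was lower in HF-Sugar than in HF libraries (-0.06 ± 0.13), the other being Scap.

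Squalene and lanosterol are made by Fdft1, Sqle and Lss. Fdft1, squalene synthase, the enzyme that commits farnesyl diphosphate to sterols, gave 19.1, 29.9 and 20.3 scaled RPKM in HF-Sugar libraries, 11.6, 21.3 and 19.5 in HF libraries, 16.9, 28.8 and 27.6 in NF-Sugar libraries and 34.3, 22.7 and 26.8 in NF libraries. The HF libraries lay below the NF libraries (-0.67 ± 0.29, or -0.41 without HF replicate 1), and HF and HF-Sugar libraries overlapped (0.40 ± 0.29). Sqle, squalene epoxidase, gave 20.8, 23.4 and 20.6 scaled RPKM in HF-Sugar libraries, 8.20, 16.7 and 15.6 in HF libraries, 15.6, 22.9 and 23.4 in NF-Sugar libraries and 23.9, 21.0 and 14.6 in NF libraries. Its HF-Sugar libraries stayed within 20.6 to 23.4 and above all HF libraries (0.70 ± 0.27, or 0.40 without HF replicate 1), and its HF and NF libraries overlapped through NF replicate 3 (-0.56 ± 0.27). Lss, lanosterol synthase, was expressed far lower per length, at 3.13 ± 1.01 in HF-Sugar, 2.06 ± 0.767 in HF, 2.68 ± 0.588 in NF-Sugar and 2.92 ± 0.457 scaled RPKM in NF, with -0.38 ± 0.22 for HF minus NF and 0.44 ± 0.22 for HF-Sugar minus HF.

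Between lanosterol and cholesterol, methyl groups are removed and double bonds moved or reduced. Cyp51, the lanosterol demethylase, gave 23.9, 30.8 and 20.9 scaled RPKM in HF-Sugar libraries, 13.1, 18.4 and 19.8 in HF libraries, 15.1, 30.9 and 30.1 in NF-Sugar libraries and 33.1, 24.3 and 23.4 in NF libraries. Its HF libraries lay below all NF and all HF-Sugar libraries (-0.63 ± 0.28 and 0.54 ± 0.28). Msmo1, the methylsterol monooxygenase, gave 21.9, 31.7 and 19.0 scaled RPKM in HF-Sugar libraries, 8.67, 16.6 and 14.7 in HF libraries, 15.1, 22.9 and 20.1 in NF-Sugar libraries and 29.5, 30.5 and 14.2 in NF libraries. NF replicate 3 fell among its HF libraries (-0.82 ± 0.33), while every HF-Sugar library was above them (0.83 ± 0.33). Hsd17b7, the keto-sterol reductase of the same demethylation complex, gave 5.19, 7.0 and 5.57 scaled RPKM in HF-Sugar libraries, 2.94, 4.0 and 4.14 in HF libraries, 4.27, 5.90 and 5.60 in NF-Sugar libraries and 7.14, 5.67 and 4.81 in NF libraries. This member had the smallest p in both comparisons (-0.55 ± 0.17 for HF minus NF and 0.56 ± 0.17 for HF-Sugar minus HF), and its HF libraries lay below all NF and HF-Sugar libraries. Nsdhl, the dehydrogenase that acts between Msmo1 and Hsd17b7, averaged 10.5 ± 3.54 in HF-Sugar, 7.54 ± 2.5 in HF, 10.1 ± 1.25 in NF-Sugar and 8.88 ± 1.90 scaled RPKM in NF with -0.24 ± 0.27 for HF minus NF.

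The last steps (Ebp, Sc5d and Dhcr7) differed less between HF and NF libraries than Cyp51, Msmo1 and Hsd17b7. So did Tm7sf2, which stands directly after Cyp51 in pathway order. Ebp, the sterol isomerase, averaged 25.6 ± 2.29 in HF-Sugar, 24.3 ± 2.5 in HF, 25.2 ± 1.03 in NF-Sugar and 27.5 ± 4.89 scaled RPKM in NF, and Tm7sf2, a sterol reductase, averaged 6.89 ± 2.35 in HF-Sugar, 6.26 ± 0.210 in HF, 6.33 ± 0.251 in NF-Sugar and 7.58 ± 1.06 scaled RPKM in NF. Sc5d, the sterol desaturase, gave 13.1, 16.5 and 13.1 scaled RPKM in HF-Sugar libraries, 14.5, 15.1 and 12.4 in HF libraries, 14.5, 12.1 and 13.6 in NF-Sugar libraries and 15.1, 17.4 and 14.4 in NF libraries, and its groups overlapped in every comparison (-0.15 ± 0.14 for HF minus NF). Dhcr7, a reductase of the final steps, gave 8.87, 10.4 and 7.68 scaled RPKM in HF-Sugar libraries, 6.33, 8.19 and 8.79 in HF libraries, 7.19, 7.94 and 8.33 in NF-Sugar libraries and 9.12, 7.38 and 7.17 in NF libraries, with -0.02 ± 0.15 for HF minus NF and 0.17 ± 0.15 for HF-Sugar minus NF. For Ebp the HF minus NF difference was -0.17 ± 0.15, and for Tm7sf2 -0.23 ± 0.19.

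**Figure D2:**
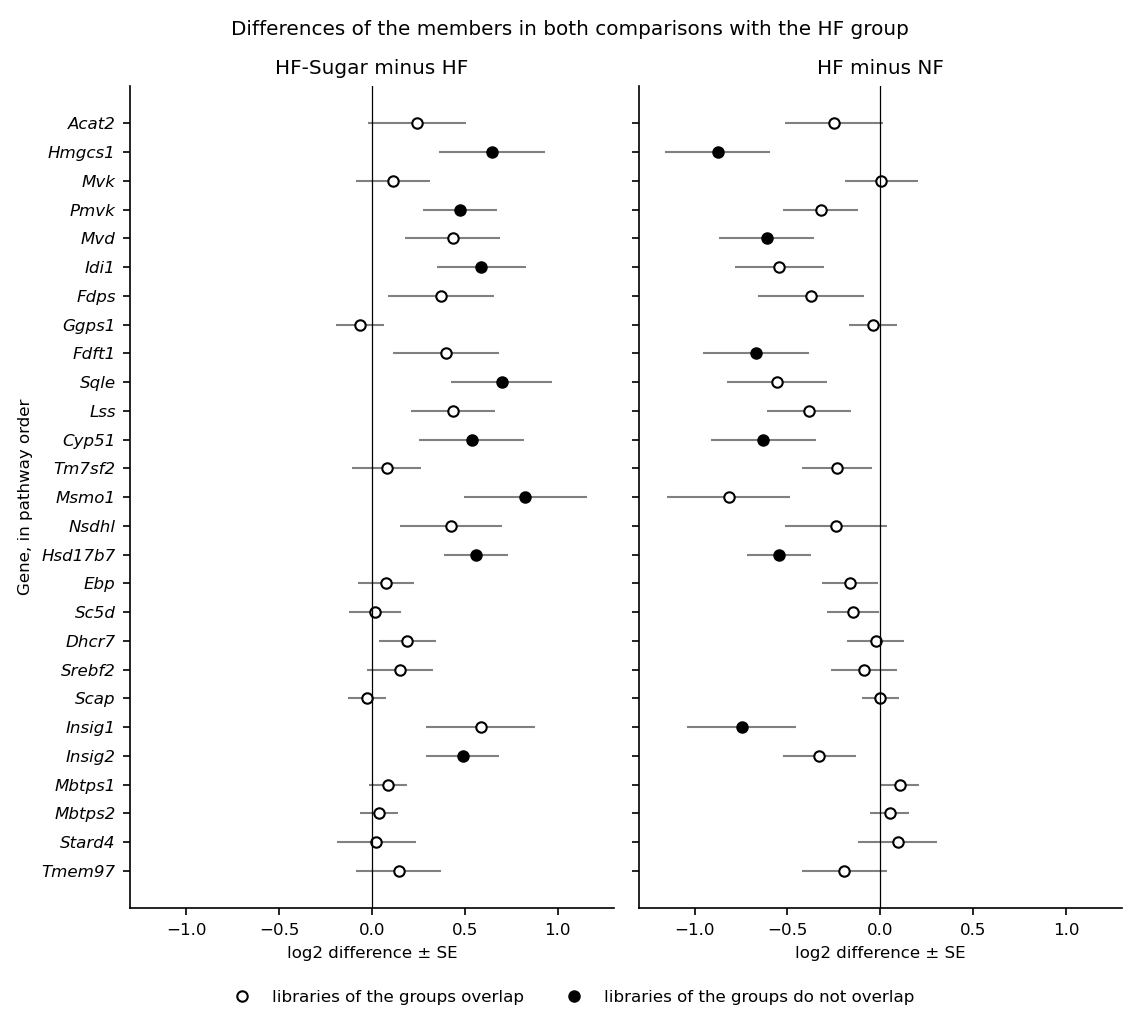
Log2 differences ± SE of the 27 members in pathway order, HF-Sugar minus HF (left) and HF minus NF (right), with filled symbols where the 3 libraries of each group do not overlap. Values lie left of 0 for 22 of 27 members in HF minus NF and right of 0 for 25 of 27 in HF-Sugar minus HF; both panels use the same HF libraries, and no value passed the adjusted threshold.

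The transcript of the regulator differed little between groups. Srebf2, which encodes SREBP2 (chromosome 15, 82147181 to 82205379, plus strand), gave 40.7, 48.0 and 36.9 scaled RPKM in HF-Sugar libraries, 29.9, 41.3 and 42.1 in HF libraries, 40.0, 44.4 and 38.6 in NF-Sugar libraries and 46.9, 35.8 and 37.4 in NF libraries. The groups overlapped, with -0.09 ± 0.18 for HF minus NF and 0.15 ± 0.18 for HF-Sugar minus HF. Cleavage of the protein, which sets its activity, is not measured by RNA. Scap, the escort protein, was even at 4.61, 4.35 and 3.72 scaled RPKM in HF-Sugar libraries, 4.34, 4.37 and 4.21 in HF libraries, 4.32, 4.41 and 3.87 in NF-Sugar libraries and 4.0, 4.48 and 4.45 in NF libraries, with 0.00 ± 0.10 for HF minus NF. The site-1 protease Mbtps1 gave 7.22, 6.14 and 5.90 scaled RPKM in HF-Sugar libraries, 5.58, 6.27 and 6.10 in HF libraries, 6.23, 6.16 and 6.27 in NF-Sugar libraries and 5.21, 5.52 and 5.72 in NF libraries. It was the 1 member whose HF-Sugar libraries all exceeded the NF libraries, as 6.09% of all genes did (0.19 ± 0.10), and the 1 member whose NF-Sugar libraries did so, as 2.81% of all genes did (0.16 ± 0.10). The site-2 protease Mbtps2 was the lowest member, at 0.805 ± 0.106 in HF-Sugar, 0.765 ± 0.227 in HF, 0.738 ± 0.0300 in NF-Sugar and 0.698 ± 0.0755 scaled RPKM in NF.

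The INSIG genes restrain the pathway. Insig1, a retention protein and itself an SREBP target, gave 13.1, 17.2 and 16.3 scaled RPKM in HF-Sugar libraries, 7.79, 15.2 and 8.23 in HF libraries, 8.04, 18.5 and 12.8 in NF-Sugar libraries and 17.2, 19.2 and 15.8 in NF libraries. The HF libraries lay below all NF libraries (-0.75 ± 0.29), with HF replicate 2 close to the lowest NF library, and NF-Sugar replicate 1 was as low as the HF libraries. Insig2, the isoform that is less dependent on SREBP, gave 24.2, 20.7 and 18.9 scaled RPKM in HF-Sugar libraries, 13.1, 18.8 and 13.1 in HF libraries, 23.1, 14.8 and 18.2 in NF-Sugar libraries and 20.2, 20.1 and 16.5 in NF libraries. Its HF-Sugar libraries lay above all HF libraries (0.49 ± 0.20), and its HF and NF libraries overlapped (-0.33 ± 0.20).

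Sterol handling was represented by 2 members. Stard4, a sterol carrier of the cytosol and a known SREBP2 target, averaged 34.6 ± 1.02 in HF-Sugar, 34.6 ± 8.21 in HF, 32.5 ± 8.62 in NF-Sugar and 32.1 ± 5.14 scaled RPKM in NF (0.09 ± 0.21 for HF minus NF). Tmem97, an endoplasmic reticulum protein regulated by sterols, averaged 32.3 ± 3.27 in HF-Sugar, 29.2 ± 3.20 in HF, 31.3 ± 5.95 in NF-Sugar and 34.5 ± 10.3 scaled RPKM in NF (-0.19 ± 0.23), and 20.8% of its 50-base stretches also occur in another annotated copy.

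**Figure D3:**
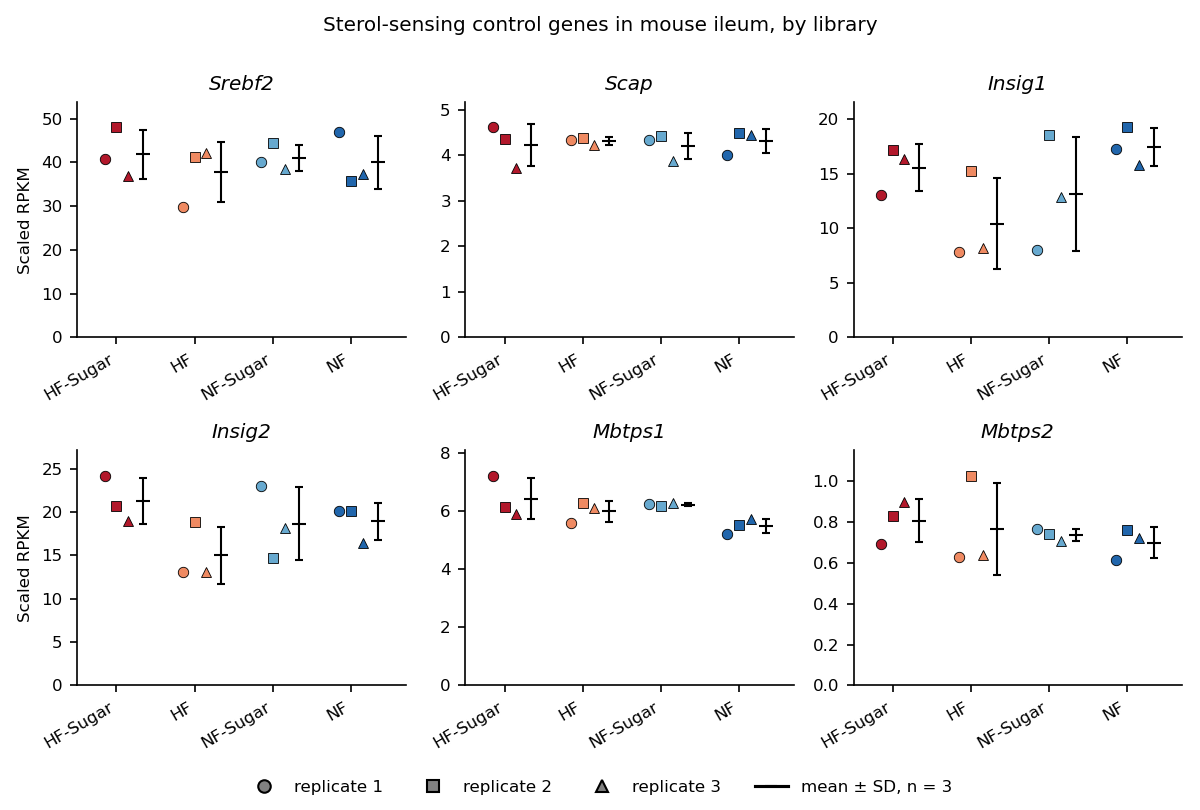
Scaled RPKM of the 6 sterol-sensing genes (vertical axes, linear, starting at 0) in the 12 libraries, by diet group. Symbols are replicates and bars give mean ± SD (n = 3); Srebf2 and Scap overlap between all groups, and the 3 HF libraries of Insig1 lie below the 3 NF libraries.

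Counted over the members, 6 of 27 had HF libraries that all lay below the NF libraries (Hmgcs1, Mvd, Fdft1, Cyp51, Hsd17b7 and Insig1), against 3.5% of all genes tested. At an unadjusted p under 0.05, 8 of 27 members were lower in HF than in NF libraries (those 6, Idi1 and Msmo1), against 1.52% of all genes. In HF-Sugar against HF, 8 members did not overlap and were higher in HF-Sugar (Hmgcs1, Pmvk, Idi1, Sqle, Cyp51, Msmo1, Hsd17b7 and Insig2), against 5.27% of all genes, and 7 members had an unadjusted p under 0.05 (the same without Cyp51), against 2% of all genes. The members share their 3 mice a group, so these counts carry no test of the list. In the other 5 pairwise and pooled comparisons 0 members had an unadjusted p under 0.05 by limma, against 1.63% to 4.16% of all genes in either direction. The counts for HF against NF and HF-Sugar against HF rested on single libraries: without HF replicate 1 those at an unadjusted p under 0.05 were 1 and 1. Without NF replicate 1, NF replicate 2 or HF-Sugar replicate 3 the first count was 2, 4 and 5, and without HF-Sugar replicate 2 the second count was 1. The direction of most members held without HF replicate 1: 19 of 27 were lower in HF than in NF libraries, and 21 of 27 were higher in HF-Sugar than in HF libraries, with a median of 0.17 for the second comparison. Without HF-Sugar replicate 2 that median was also 0.17.

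Library by library, HF replicate 1 was the lowest of the 12 for 13 of 19 enzymes and lay below the NF mean for 19 of 19, with a median log2 difference of -0.79. HF replicates 2 and 3 lay below the NF mean for 14 and 16 of 19 enzymes (medians -0.30 and -0.23). NF-Sugar replicate 1 lay below it for 17 of 19 (median -0.30), and NF-Sugar replicates 2 and 3 for 8 and 7 (medians 0.02 and 0.07). HF-Sugar replicate 2 was the highest library for 7 enzymes and lay below the NF mean for 2, whereas HF-Sugar replicates 1 and 3 lay below it for 14 and 16 (medians -0.11 and -0.13). NF replicate 3 itself lay below the NF mean for 17 of 19 enzymes. HF and NF libraries overlapped for all enzymes but Hmgcs1, Mvd, Fdft1, Cyp51 and Hsd17b7, and so also for Msmo1, Idi1 and Sqle.

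**Figure D4:**
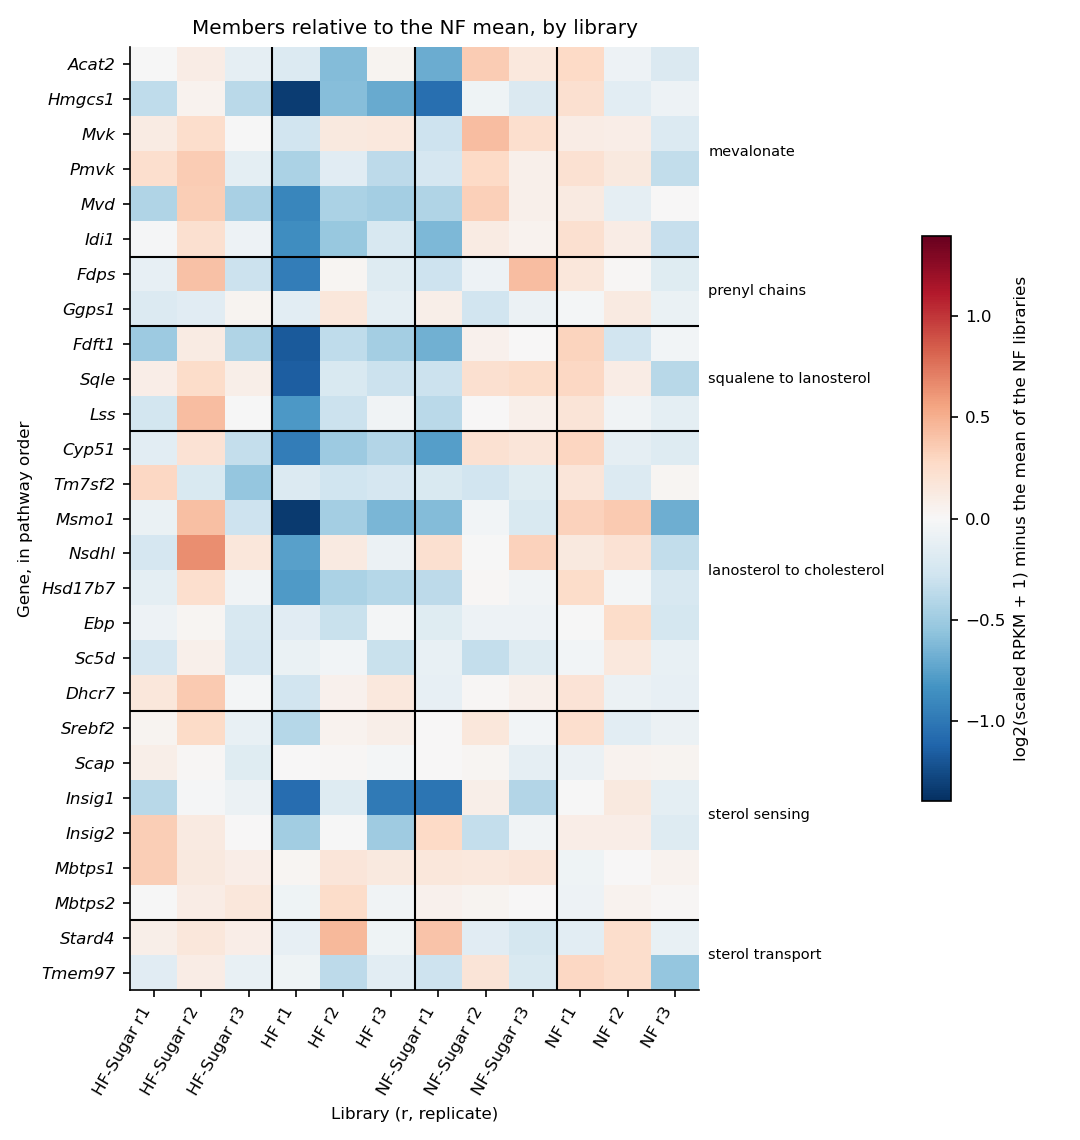
Log2(scaled RPKM + 1) of the 27 members (rows, in pathway order) in each library (columns, by group) minus the mean of the 3 NF libraries; blue is lower and red higher than that mean. The column of HF replicate 1 is blue for all 19 enzymes, with a median enzyme difference of -0.79, against -0.11 and -0.13 in HF-Sugar replicates 1 and 3.

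The levels of cell type and position markers varied among the libraries, and no tested marker was called in any comparison by limma. The 4 pancreas markers fell below the filter and were not tested. They summed to 15.3 scaled RPKM in HF replicate 2, and the next highest sum was 1.48 in HF-Sugar replicate 1. Among the 8 ileal enterocyte markers, 8 were lower in HF than in NF libraries, with a median of -0.22, close to the -0.25 of the members, and Slc51b, a subunit of the bile acid exporter, stood at -0.90 ± 0.27. The same 8 were lower in NF-Sugar than in NF libraries (median -0.43) and had a positive interaction (median 0.41), the direction of 25 of 27 members. In HF-Sugar against HF 4 were higher and 4 lower (median -0.01). The 5 genes of the proximal list (Fabp1, Lct, Gata4, Apoa4 and Slc2a2, genes of the jejunum more than of the ileum, none at 0 in any library) summed to 186.8 to 593.6 scaled RPKM in HF-Sugar, 293.3 to 2136 in HF, 175.3 to 1033 in NF-Sugar and 540.7 to 664.4 in NF libraries. All 5 were higher in HF than in NF libraries (median 0.59) and lower in HF-Sugar than in HF libraries (median -1.08). The highest sum was in HF replicate 1, the library with the lowest enzymes. The second highest was in NF-Sugar replicate 3 (1033), where the enzymes stood near the NF mean. HF replicate 3 (807.1) and NF-Sugar replicate 1 (766.8) came next, with 16 and 17 of 19 enzymes below the NF mean. HF replicate 2 had 293.3, the lowest sum of the HF group, and 14 of its 19 enzymes were below the NF mean. Leukocyte markers (8 of 8 detected) summed to 26.1 to 38.6 in HF-Sugar, 28.4 to 39.6 in HF, 19.4 to 35.2 in NF-Sugar and 22.9 to 25.4 in NF libraries. Crypt and cell-cycle markers summed to 76.8 to 207.5 in HF-Sugar, 113.2 to 149.0 in HF, 82.4 to 159.2 in NF-Sugar and 72.8 to 154.1 in NF libraries. Smooth muscle markers summed to 318.3 to 608.0 in HF-Sugar, 395.6 to 451.9 in HF, 377.3 to 836.8 in NF-Sugar and 379.7 to 674.3 in NF libraries, and 5 of 5 were lower in HF than in NF (median -0.25). Adipocyte markers summed to 2.37 to 14.9 in HF-Sugar, 3.52 to 7.70 in HF, 0.121 to 39.9 in NF-Sugar and 3.85 to 48.4 in NF libraries, and 3 of 3 tested were lower in HF than in NF (median -0.72). Villus tip markers summed to 138.4 to 260.9 in HF-Sugar, 215.6 to 357.1 in HF, 130.6 to 258.6 in NF-Sugar and 219.6 to 269.4 in NF libraries. Their highest sum was in HF replicate 1, and 4 of 5 were lower in HF-Sugar than in HF (median -0.47). The part of tissue position and composition in the enzyme values was not tested.

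Pooled over drinks, the fat contrast was small for these genes. In both high-fat groups against both normal-fat groups 21 of 27 members had a lower mean log2 value, with a median difference of -0.10 (all genes -0.0026). The member with the smallest p was Mvd (-0.39 ± 0.18), followed by Fdft1 (-0.37 ± 0.20). In the groups with the sugar drink against those without it, 22 of 27 members had a higher mean log2 value (median difference 0.11, all genes -0.0068), led by Sqle (0.38 ± 0.19). The fat median was -0.05 without NF replicate 1, -0.06 without HF-Sugar replicate 3, -0.15 without NF replicate 3 and -0.21 without the 4 libraries apart on the first component. The sugar median was 0.05 without HF replicate 1, 0.06 without HF-Sugar replicate 2, 0.16 without NF replicate 1, 0.17 without HF replicate 2 and 0.22 without NF-Sugar replicate 1. For the full combination, HF-Sugar against NF gave 14 members higher and 13 lower and a median of 0.01. HF-Sugar against NF-Sugar gave 22 higher and 5 lower, with a median of 0.06, and NF-Sugar against NF gave 8 higher and 19 lower, with a median of -0.07, where Hmgcs1 (-0.44 ± 0.28) and Insig1 (-0.45 ± 0.29) had the largest differences. The small medians of these comparisons depended on single libraries: that of HF-Sugar against NF was -0.10 without NF replicate 3 and -0.08 without HF-Sugar replicate 2, and that of NF-Sugar against NF was 0.03 without NF-Sugar replicate 1.

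The difference between the fat contrast with and without sugar was itself estimated as an interaction, (HF-Sugar minus NF-Sugar) minus (HF minus NF). It was positive for 25 of 27 members, with a median of 0.31 against 0.01 for all genes. The largest were Msmo1 (1.11 ± 0.47), Hmgcs1 (1.08 ± 0.40) and Insig1 (1.03 ± 0.41), and Hsd17b7 had the smallest p (0.69 ± 0.25). These 4 were the members with an unadjusted p under 0.05, against 1.44% of all genes in that direction, and none was called after adjustment. The count was 1 without HF replicate 1, without HF-Sugar replicate 2 or without NF replicate 1, 2 without NF replicate 2 and 6 without NF replicate 3. The median was 0.18 without HF-Sugar replicate 2 and 0.49 without HF-Sugar replicate 3.

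Genes next to the pathway were taken from 5 lists, and none of their members was called in any comparison by limma. The list for SREBP1, the lipogenic relative of SREBP2, held Srebf1 itself beside the targets. Of its 13 tested genes, 10 were lower in HF than in NF libraries (median -0.14) and 10 higher in HF-Sugar than in HF libraries (median 0.23). Srebf1, which encodes that factor and is driven by liver X receptors (LXR), ran the other way, with 8.62, 9.51 and 8.38 scaled RPKM in HF-Sugar libraries, 11.0, 9.32 and 8.67 in HF libraries, 9.54, 8.69 and 7.68 in NF-Sugar libraries and 6.67, 7.32 and 8.77 in NF libraries (0.31 ± 0.14 for HF minus NF). The list of LXR targets and sterol efflux held 8 genes, not all of them efflux genes (Nr1h3, Mylip and Lpcat3 among them). Of these 8, 7 were higher in HF than in NF libraries (median 0.28) and 8 lower in HF-Sugar than in HF libraries (median -0.20). Abcg8, which exports sterols into the gut lumen, gave 50.1, 48.1 and 37.2 scaled RPKM in HF-Sugar libraries, 54.9, 48.6 and 46.0 in HF libraries, 63.9, 29.7 and 33.3 in NF-Sugar libraries and 38.5, 42.8 and 37.8 in NF libraries. Its difference was 0.32 ± 0.25 for HF minus NF, and its highest library was NF-Sugar replicate 1. Abca1, the cholesterol exporter to lipoproteins, averaged 1.89 ± 0.471 in HF and 1.36 ± 0.220 scaled RPKM in NF libraries (SD, n = 3 each). Among 12 genes of sterol esterification and transport, 8 were higher in HF than in NF libraries (median 0.16), Soat2, the intestinal cholesterol acyltransferase, averaging 27.6 ± 6.24 in HF and 21.0 ± 4.42 in NF. Among 12 genes of isoprenoid side branches 9 were lower (median -0.12), with Nus1, a subunit of the dolichol-making prenyltransferase, at -0.34 ± 0.14. The 7 tested genes of sterol sensing and enzyme turnover had 4 higher and 3 lower (median 0.04). These lists were measured in the same libraries as the members, HF replicate 1 included.

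Some members overlap other genes in their exons, and whether the counting used strand is not given in the sources used here. Exons of a gene on the opposite strand were annotated for Hmgcs1, Idi1, Fdft1, Lss, Cyp51, Scap and Ggps1, and exons of a gene on the same strand for Fdps, Tm7sf2 and Mbtps2, so reads of such pairs cannot be told apart in these values.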

How the data were processed

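RNA came from the ileum of single mice. The paper's methods describe mRNA that was isolated from total RNA, then depleted of ribosomal RNA and sequenced on an Ion Proton. The authors aligned reads to mm10 with STAR and quantified Ensembl genes in Partek Flow, and the deposited values are RPKM for 12 libraries. The authors tested with DESeq2 on counts, which were not used here. Of 44231 rows, 26 whose name was a bare number (at most 0.135% of a library) were left out. RPKM were scaled by TMM factors (trims of 30% and 5%), and genes at 0.5 or more in at least 3 libraries were fitted as log2(RPKM + 1) with limma 3.58.1 in R 4.3.3, with a trend, all 4 groups in 1 fit and Benjamini-Hochberg adjustment. The test was checked on simulated data. Depth was estimated from the steps of low RPKM values and annotated exon lengths. Promoters came from RefSeq and coordinates from GENCODE, both on mm10, searched with Python 3.11.15.

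The members and lists were chosen with earlier results of these data known. All members are named. Values per library are given for Srebf2, Scap, Insig1 and Insig2, for members whose HF and NF libraries did not overlap, for the 8 members with the smallest p in fat over both drinks, and for the 4 with the smallest p in each of HF-Sugar against NF and sugar over both diets. Outside the members, at most 4 genes a list (smallest p in fat over both drinks) and the marker lists were eligible. Replicate numbers are mouse numbers within a group and were not said to pair mice; deviations of same-numbered libraries correlated above 0.1 for all 3 numbers only for HF-Sugar with HF (0.49, 0.56 and 0.13) and HF-Sugar with NF (0.19, 0.51 and 0.23). Alternatives covered scaling, pseudocount, filter, model, threshold, samples in the fit, the replicate number as a block and each library left out. Limma-voom on estimated reads and the relaxed SRE search were added after the data were seen.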

Additional observations from a re-analysis of the deposited data

How the results depend on the processing

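No member was called for any comparison under any alternative run, 25 for each pairwise comparison and 24 for each pooled contrast and the interaction, where a fit of only the groups compared does not apply. The medians of HF against NF, HF-Sugar against HF, the interaction and both pooled contrasts kept their sign, as did the differences of the members at an unadjusted p under 0.05 in HF against NF, HF-Sugar against HF and the interaction. Signs of the other members were not followed one by one, and the counts show that some changed. Smaller medians changed sign: that of HF-Sugar against NF was -0.10 without NF replicate 3, -0.08 without HF-Sugar replicate 2 and -0.02 without the 4 libraries apart on the first component, which also gave -0.09 for HF-Sugar against NF-Sugar and 0.05 for NF-Sugar against NF. The last was 0.03 without NF-Sugar replicate 1. Members lower in HF than in NF numbered 19 to 26 with 1 library left out and 21 to 23 under the other settings, and those higher in HF-Sugar than in HF 21 to 26 with 1 library left out. The HF against NF median ran from -0.42 to -0.17 with 1 library left out. Members lower in HF than in NF at an unadjusted p under 0.05 numbered 8, or 4 with no further scaling, and 1 to 8 with 1 library left out. For HF-Sugar against HF the count was 7, or 1 to 9 with 1 library left out, and the median 0.37, or 0.17 to 0.48. For the interaction the count was 4, or 1 to 6, and the median 0.31, or 0.18 to 0.49. A pseudocount of 5 gave 0.20 for the HF-Sugar against HF median and, for Hsd17b7, -0.32 in HF against NF, 0.33 in HF-Sugar against HF and 0.41 in the interaction. Without the 4 libraries apart the interaction median was 0.18. With no further scaling the fat median was -0.06. Allowing 1 changed letter moved the share of members with an SRE core to 43.5%. With the replicate block the counts at an unadjusted p under 0.05 were 7 for HF against NF, 8 for HF-Sugar against HF and 4 for the interaction, and no call of a member changed. The study's thresholds of 2-fold and 0.01 were applied to the main fit. Being stricter, they could call no member where 0.05 called none, so this alternative, counted above, was no separate check. The number of mice limits the precision: the median SE of the enzymes was 0.24 for a pairwise comparison.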
